A study of Mus musculus with 17 samples.

Results

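Corticosteroids reach the colon in the blood and act inside its cells through a pair of nuclear receptors, the glucocorticoid receptor and the mineralocorticoid receptor. Both bind corticosterone, the main glucocorticoid of the mouse, and enzymes of the 11-beta-hydroxysteroid dehydrogenase family set how much active hormone a cell holds. In the distal colon, aldosterone acting through the mineralocorticoid receptor is known to raise sodium uptake through the epithelial sodium channel of surface cells.

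The genes described here are the 10 rows of the count table whose symbol is that of a corticosteroid receptor (Nr3c1, Nr3c2), an enzyme that converts corticosteroids (Hsd11b1, Hsd11b2), a corticosteroid target (Fkbp5, Tsc22d3, Sgk1) or a subunit of the epithelial sodium channel (Scnn1a, Scnn1b, Scnn1g). All 10 were among its 23719 entries. A filter on low counts left 14146 entries for testing, 9 of them from these genes, and removed Scnn1g.

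RNA was sequenced from 17 samples of colon tissue, here called colons, of male C57BL/6 mice aged 32 to 34 weeks, and the labels give no segment of the colon. The 9 control colons came from mice given water. The 8 GWI colons, named for Gulf War Illness, came from mice that drank 2 mg/kg of pyridostigmine bromide, which blocks acetylcholinesterase, over 7 days. They then had 21 days of recovery, and colons were collected at day 30. The comparison asks which transcripts differed after that recovery. No sample comes from the end of the exposure, so when a difference arose is not shown. The total count per colon ranged from 16744096 to 20741212 in control colons and from 16293537 to 18389686 in GWI colons. Levels are given in CPM, a gene's count scaled to a common library size by TMM factors.

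A pair of colons, Control replicate 1 and GWI replicate 5, stood apart from the rest. Hoxa13, a gene of the hindmost part of the body axis, was at 71.0 and 75.3 CPM in them, against 1.59 to 16.1 CPM in the other 15 colons. Hoxb13 was at 55.5 and 11.4 CPM in them and at most 2.67 CPM elsewhere. Hoxd10 went the other way, with 0.505 and 1.01 CPM against at least 2.58 CPM. Car1, a carbonic anhydrase chosen here after its values were seen, was lowest in the same pair. Control replicate 9 differed in another respect, since mitochondrial genes took 19.5% of its counts against at most 14.2% in any other colon. The mitochondrial share also moved with the groups, at a median of 10.3% in control colons and 7.15% in GWI colons, and 5 of 9 control colons lay above the GWI maximum of 9.76%. Its part in the results was not tested. Results are therefore given with all 17 colons and, where the pair matters, with the remaining 15. What sets these colons apart was not tested.

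At an adjusted p under 0.05 (edgeR quasi-likelihood test, Benjamini-Hochberg over 14146 genes), 3 of the 9 tested genes were higher in GWI colons and 0 were lower. Over all tested genes 26.8% were called, 13.4% as higher and 13.5% as lower, so the number called is close to that background and is no result about the genes as a group. The genes that rose were Sgk1, Hsd11b2 and Fkbp5. Without the pair of colons high in Hoxa13, 5 of 9 were higher, with Scnn1a and Nr3c2 added, while 17.4% of all tested genes were higher and 17.5% lower. With Control replicate 9 left out as well it was again 5 of 9, while 20.5% of all tested genes were higher and 21.8% lower. The median log2 fold change of the 9 genes was 0.32, against −0.06 over all tested genes. With upper-quartile factors in place of TMM the calls over all genes moved from 1889 higher and 1903 lower to 1214 higher and 2992 lower, at an overall median of −0.15, and the same 3 genes were higher. At an unadjusted p under 0.05 the counts were 4 higher and 0 lower. The share of all tested genes at that p alone was not counted. Counts at it, here and below, thus have no background and are descriptions only. DESeq2 called 4 higher and limma-voom with quality weights 5 higher, against 15.3% and 27.6% of all tested genes. Both called 0 lower, against 17.3% and 29.5%. Some colons of a group have sample codes with a shared prefix whose meaning is not given, and ways of treating these as dependent gave different calls. With their counts summed, which left 6 control and 4 GWI units, edgeR called 0 of the 10 genes, with 3 higher (Sgk1, Hsd11b2, Fkbp5) and 0 lower at an unadjusted p under 0.05, while 0.0945% of all tested genes were higher and 0.00675% lower. Sgk1 then had a log2 fold change of 1.14, Hsd11b2 one of 0.69 and Fkbp5 one of 0.59, with adjusted p of 0.0956, 0.174 and 0.154. With the prefix as a random effect, limma-voom called 5 of 9 higher and 0 lower, as it did without it, while 23.5% of all tested genes were higher and 25.2% lower.

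**Figure D1:**
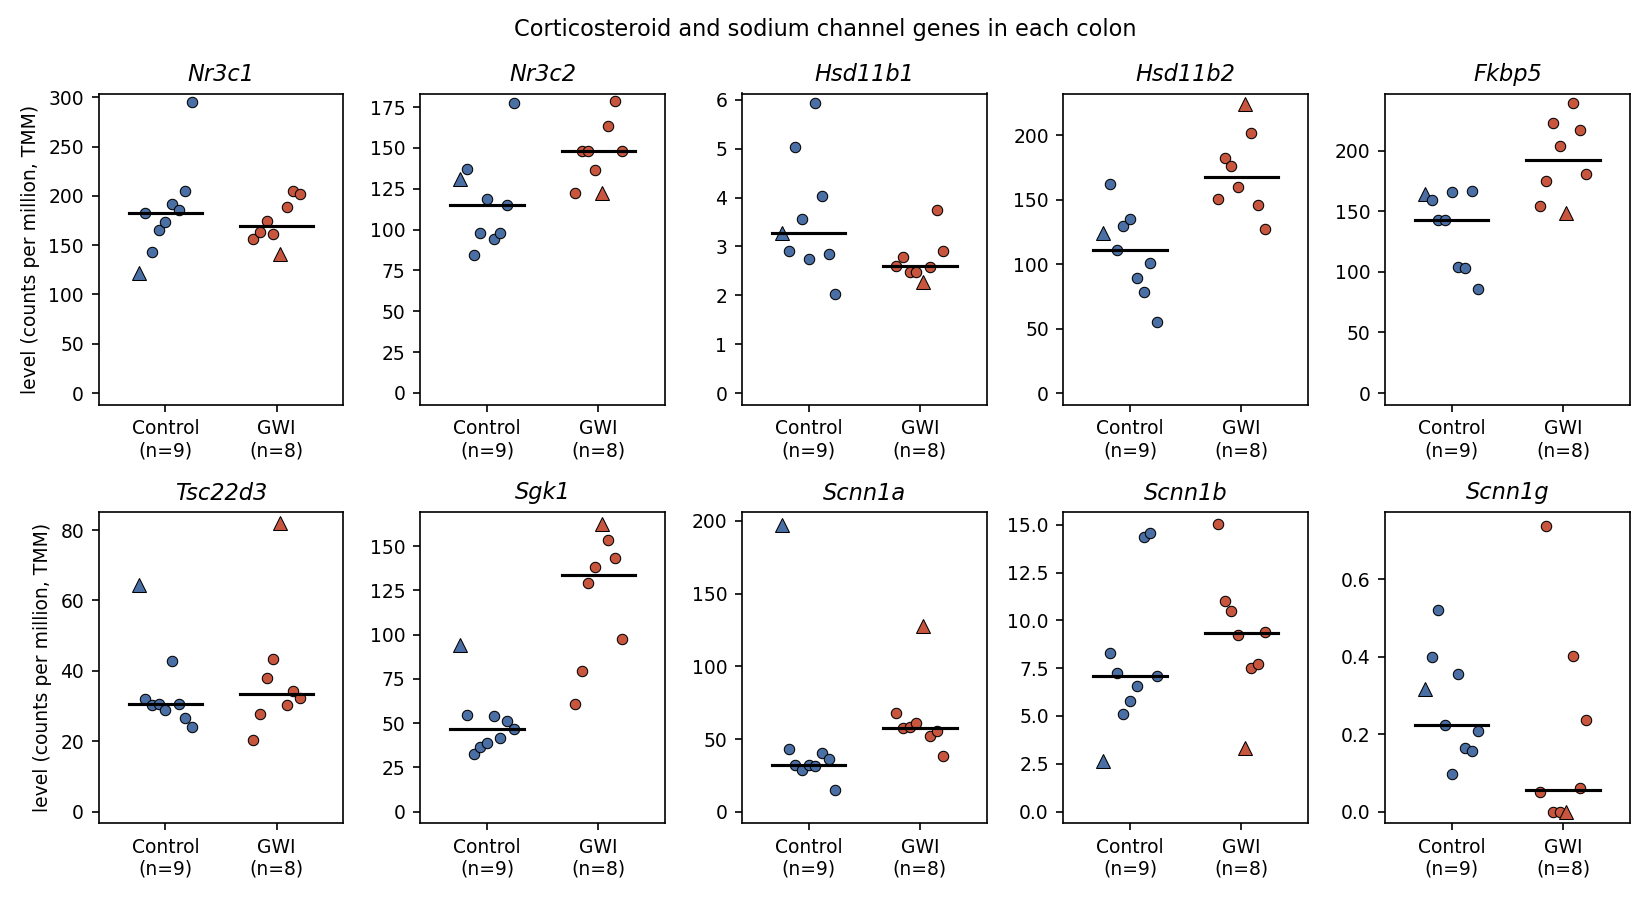
Level of each gene in each colon, in CPM, for 9 control colons (blue) and 8 GWI colons (red). Each point is a colon, triangles mark Control replicate 1 and GWI replicate 5, and lines are medians. Sgk1 ran from 32.6 to 94.0 CPM in control colons and from 60.6 to 163 CPM in GWI colons.

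Nr3c1 encodes the glucocorticoid receptor, which sits in the cytoplasm with chaperones and moves to the nucleus once it binds hormone. Its level ran from 122 to 295 CPM with a median of 182 CPM in control colons, and from 141 to 205 CPM with a median of 169 CPM in GWI colons. All 8 GWI colons lay inside the control range. The log2 fold change was −0.09 ± 0.14 (SE), with a 95% confidence interval from −0.38 to 0.21 and an adjusted p of 0.660 by edgeR. Its highest value came from Control replicate 9 and its lowest from Control replicate 1. Without Control replicate 9 the log2 fold change was 0.03, and with all colons in place limma-voom gave 0.044, so the sign of this small difference was not settled.

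Nr3c2 encodes the mineralocorticoid receptor, which in sodium-absorbing epithelia answers to aldosterone. In control colons its level ran from 84.4 to 178 CPM with a median of 115 CPM, and in GWI colons from 122 to 179 CPM with a median of 148 CPM. All GWI colons lay above the control median, yet the ranges overlapped, with Control replicate 9 at 178 CPM and 5 of 8 GWI colons above the next control value of 137 CPM. The log2 fold change was 0.32 ± 0.13 (SE), and its adjusted p of 0.0785 by edgeR missed the threshold. Without Control replicate 9 the adjusted p was 0.0108 and the log2 fold change 0.42. Without the pair high in Hoxa13 the values were 0.0484 and 0.37. With a covariate of muscle minus epithelial marker levels they were 0.814 and 0.053. Exons of Nr3c2 overlap Gm10649, a gene on the opposite strand, over 247 bases, and whether the counting used strand is not given in the sources used here.

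The ratio of Nr3c2 to Nr3c1 within a colon does not depend on how libraries are scaled. On the log2 scale it ran from −1.03 to 0.10 with a median of −0.76 in control colons, and from −0.45 to −0.14 with a median of −0.23 in GWI colons. The GWI colons held a narrow band near the top of the control range, which ended at Control replicate 1. The mean rose by 0.40, from −0.65 ± 0.34 (SD, n = 9) to −0.26 ± 0.10 (SD, n = 8), with an exact two-sided permutation p of 0.00757 over 24310 splits and 0.0189 after Benjamini-Hochberg adjustment over 5 ratios. Without the pair the rise was 0.49, with an adjusted p of 0.00311 by the same exact test. Averaged over colons that share a code prefix it was 0.35, with an adjusted exact p of 0.196. A ratio shows unequal levels and not which of the receptors differed. The part of muscle and epithelial markers in it was not tested.

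Per kilobase of annotated exon, the control medians were 23.7 CPM for Nr3c1 and 17.8 CPM for Nr3c2. In GWI colons they were 22.0 and 22.9 CPM per kilobase. Per kilobase the control means ran from Hsd11b2 (59.5 ± 17.6 CPM, SD, n = 9) down through Nr3c1 (24.1 ± 6.31), Nr3c2 (18.1 ± 4.44), Fkbp5 (14.5 ± 3.29), Scnn1a (12.3 ± 13.4), Sgk1 (10.2 ± 3.72), Tsc22d3 (7.93 ± 2.86), Scnn1b (3.03 ± 1.52) and Hsd11b1 (0.846 ± 0.289) to Scnn1g (0.0906 ± 0.0454). For neighbours from Nr3c1 to Tsc22d3 in that order, the ranges of mean ± SD across colons overlapped. Whether neighbours differed within a colon was not tested. The receptor messages stood at close levels in GWI colons on this scale, which counts every annotated exon of a gene and assumes none is skipped.

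Hsd11b2 encodes the enzyme that turns active corticosterone into its inactive 11-keto form, which in aldosterone target cells keeps glucocorticoid away from the mineralocorticoid receptor. It ran from 55.4 to 162 CPM with a median of 111 CPM in control colons, and from 127 to 224 CPM with a median of 168 CPM in GWI colons. Of the 8 GWI colons, 4 lay above every control colon, and the lowest control value was that of Control replicate 9. Hsd11b2 was 1.56-fold higher in GWI colons, a log2 fold change of 0.64 ± 0.17 (SE) with an adjusted p of 0.0127 by edgeR. Without the pair high in Hoxa13 it was 1.52-fold higher with an adjusted p of 0.0180. Over 15 settings other than leaving out single colons it was called in 13. With epithelial marker levels as a covariate the log2 fold change was 0.19 (adjusted p of 0.456, edgeR). With counts summed by code prefix it was 0.69 (adjusted p of 0.174, edgeR). The exon length of Hsd11b2 is short. Per kilobase it was thus the most abundant of the 10 genes, at a median of 60.4 CPM in control colons and 91.2 CPM in GWI colons.

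Hsd11b1 encodes the related enzyme that mostly works in the opposite direction and regenerates active hormone. It was scarce, with 29 to 134 counts in a control colon and 36 to 61 counts in a GWI colon. Its level ran from 2.02 to 5.94 CPM with a median of 3.28 CPM in control colons, and from 2.27 to 3.75 CPM with a median of 2.59 CPM in GWI colons. The GWI values fell inside the control range. The log2 fold change was −0.40 ± 0.19 (SE) with an adjusted p of 0.124 by edgeR. Without Control replicate 9, which held the lowest value, the log2 fold change was −0.48 and the adjusted p 0.0493. With the covariate of muscle minus epithelial marker levels it was −0.0017 with an adjusted p of 0.996, and with epithelial marker levels alone −0.19 with an adjusted p of 0.649.

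The log2 ratio of Hsd11b2 to Hsd11b1 set the message of the inactivating enzyme against that of the activating one in each colon. It ran from 3.91 to 5.79 with a median of 5.13 in control colons, and from 5.27 to 6.60 with a median of 6.01 in GWI colons. In 6 of the 8 GWI colons the ratio was above that of every control colon. The mean rose by 1.03, a 2.04-fold shift, from 4.92 ± 0.63 (SD, n = 9) to 5.95 ± 0.43 (SD, n = 8), with an exact two-sided permutation p of 0.00169 and 0.00843 after adjustment over 5 ratios. Averaged over colons that share a code prefix the rise was 1.04, with an exact p of 0.0238 and 0.119 after adjustment. Hsd11b2 alone passed the threshold of the test across genes, so this ratio repeats that difference in part. No ratio was fitted with muscle or epithelial markers, whose levels moved with the groups. Their part in this ratio was not tested.

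Fkbp5 encodes an immunophilin that binds the receptor's chaperone complex, lowers its affinity for hormone, and is itself switched on by the receptor. It ran from 86.2 to 166 CPM with a median of 143 CPM in control colons, and from 149 to 239 CPM with a median of 193 CPM in GWI colons. In 6 of the 8 GWI colons Fkbp5 was above every control colon. The remaining GWI colons, replicates 1 and 5, were at 154 and 149 CPM. Fkbp5 was 1.41-fold higher in GWI colons, a log2 fold change of 0.49 ± 0.14 (SE) with an adjusted p of 0.0190 by edgeR. Without the pair it was 1.49-fold higher with an adjusted p of 0.00780. Over 15 settings other than leaving out single colons it was called in 11. With epithelial marker levels as a covariate the log2 fold change was 0.17 (adjusted p of 0.481, edgeR). With counts summed by code prefix it was 0.59 (adjusted p of 0.154, edgeR).

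Sgk1 encodes a kinase that corticosteroids induce within hours and that keeps the sodium channel at the cell surface by restraining the ubiquitin ligase Nedd4l. It ran from 32.6 to 94.0 CPM with a median of 46.7 CPM in control colons, and from 60.6 to 163 CPM with a median of 134 CPM in GWI colons. Control replicate 1 held the highest control value, and the next was 54.7 CPM. With Control replicate 1 in place, 6 of 8 GWI colons lay above every control colon. All 8 lay above the next control value. That count sets aside the control colon that overlapped them, and no share over all genes was counted for it. Sgk1 was 2.41-fold higher in GWI colons, a log2 fold change of 1.27 ± 0.22 (SE) with a 95% confidence interval from 0.82 to 1.72 and an adjusted p of 0.00109 by edgeR. Without the pair it was 2.57-fold higher with an adjusted p of 0.000129. Over 15 settings other than leaving out single colons it was called in 13. With epithelial marker levels as a covariate the log2 fold change was 0.76 (adjusted p of 0.0746, edgeR). With counts summed by code prefix it was 1.14 (adjusted p of 0.0956, edgeR). Of the 10 genes Sgk1 was the only one past the threshold of an absolute log2 fold change over 1 with an unadjusted p under 0.05. At that threshold 0.65% of all tested genes were higher.

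Tsc22d3 encodes GILZ, a leucine zipper protein that glucocorticoids induce in many cells. It ran from 24.0 to 64.5 CPM with a median of 30.5 CPM in control colons, and from 20.4 to 82.0 CPM with a median of 33.3 CPM in GWI colons. Both highest values came from the pair high in Hoxa13. The log2 fold change was 0.16 ± 0.24 (SE) with an adjusted p of 0.629 by edgeR. Without the pair it was 0.07 ± 0.14 (SE) with an adjusted p of 0.707. With the covariate of muscle minus epithelial marker levels it was 0.68 with an adjusted p of 0.0609. With epithelial marker levels alone it was −0.35 with an adjusted p of 0.417. With all colons its 95% confidence interval ran from −0.34 to 0.67, which takes in the estimate for Fkbp5 but not that for Sgk1.

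Scnn1a encodes the alpha subunit, which the channel needs to form a pore. It ran from 14.99 to 197 CPM with a median of 32.4 CPM in control colons, and from 38.1 to 128 CPM with a median of 57.6 CPM in GWI colons. The extremes of 197 and 128 CPM were Control replicate 1 and GWI replicate 5. With them in place the log2 fold change was 0.35 ± 0.40 (SE) and the adjusted p 0.522 by edgeR. In the remaining 15 colons, control values ran from 14.99 to 43.0 CPM and GWI values from 38.1 to 67.9 CPM, and 6 of 7 GWI colons lay above every control colon. Scnn1a was then 1.72-fold higher, a log2 fold change of 0.78 ± 0.17 (SE) with an adjusted p of 0.00313. Leaving out Control replicate 1 alone gave 0.999 on the log2 scale (adjusted p of 0.00273). With all 17 colons the DESeq2 Wald test gave 0.93 with an adjusted p of 0.000431, and over all 15 settings other than leaving out single colons the adjusted p ran from 0.000431 to 0.974. By edgeR the call for Scnn1a thus turned on Control replicate 1, since of the 17 fits that left out a single colon the one without it was alone in making the call.

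**Figure D2:**
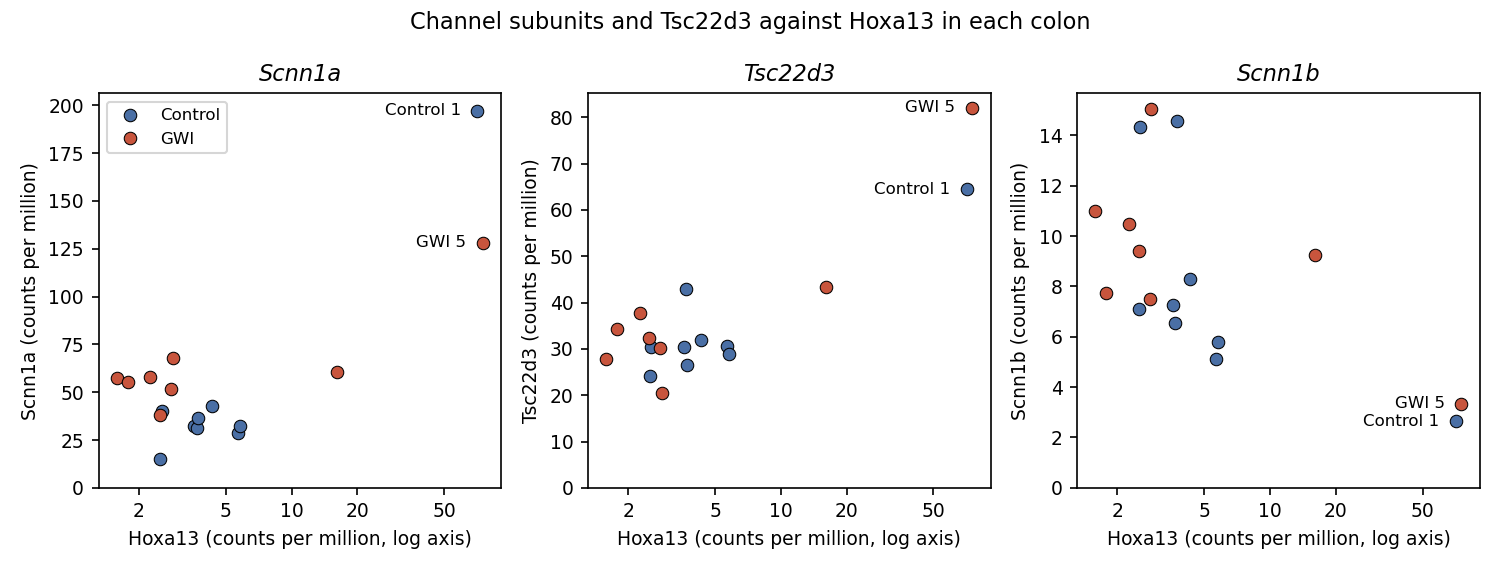
Scnn1a, Tsc22d3 and Scnn1b in each colon against Hoxa13, all in CPM, with Hoxa13 on a log axis. Control 1 and GWI 5 sit at 71.0 and 75.3 CPM of Hoxa13, with the highest Scnn1a and Tsc22d3 and the lowest Scnn1b of their groups.

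Scnn1b encodes the beta subunit, one of the pair of subunits whose supply is known to limit channel activity in the distal colon. It ran from 2.65 to 14.6 CPM with a median of 7.11 CPM in control colons, and from 3.34 to 15.04 CPM with a median of 9.32 CPM in GWI colons. The lowest value of each group came from the pair high in Hoxa13, opposite to Scnn1a. The log2 fold change was 0.21 ± 0.30 (SE) with an adjusted p of 0.613 by edgeR, and 0.22 ± 0.23 (SE) with an adjusted p of 0.477 without the pair.

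Scnn1g encodes the gamma subunit. It was near the limit of detection, with 2 to 10 counts in a control colon and 0 to 13 counts in a GWI colon. A count of 0 was found in 3 of the GWI colons, which allows a level of up to 0.161, 0.172 and 0.189 CPM from counting error alone. In 5 of the 8 GWI colons the measured level was below every control colon. The bounds for the 3 colons with a count of 0 lie above the lowest control level of 0.0980 CPM. A true level below every control colon is thus not shown for them. The highest level of any colon, 0.736 CPM, was that of GWI replicate 2. Fitted without the filter, Scnn1g had a log2 fold change of −0.52 ± 0.64 (SE) and an adjusted p of 0.585 by edgeR. With so few counts no difference in Scnn1g was called.

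Ratios between subunits followed from these levels. The log2 ratio of Scnn1b to Scnn1a ran from −6.20 to −1.07 with a median of −2.25 in control colons, and from −5.25 to −2.02 with a median of −2.59 in GWI colons. The lowest ratio in each group was again that of the pair. The mean moved from −2.42 ± 1.51 (SD, n = 9) to −2.83 ± 1.02 (SD, n = 8), with an exact two-sided permutation p of 0.521. The log2 ratio of Scnn1g to Scnn1a fell by 2.04 on average, with an exact p of 0.0269 and 0.0449 after adjustment over 5 ratios. That call rested on counts near 0 and on the 0.5 added to each count, since with 5 added the log2 difference was −0.996 and the adjusted exact p 0.0963. It was also lost in 10 of the 17 exact tests that left out a single colon. The ratio of Scnn1g to Scnn1b gave a difference of −1.63 with an exact p of 0.0420 and 0.0524 after adjustment, and passed in 5 of those 17 tests.

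Per kilobase the control medians of the subunits were 7.83 CPM for Scnn1a, 2.70 CPM for Scnn1b and 0.0745 CPM for Scnn1g. The message for the gamma subunit was thus far below those of its partners in these colons.

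**Figure D3:**
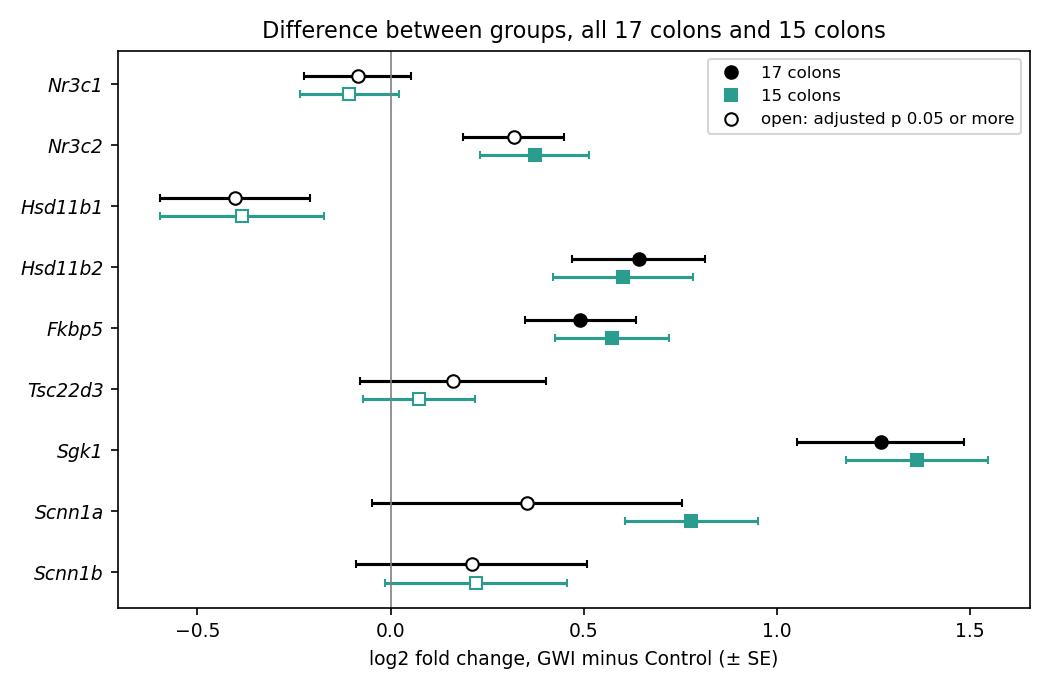
Log2 fold change of GWI against control colons with its standard error for the 9 tested genes, with all 17 colons (circles) and without Control replicate 1 and GWI replicate 5 (squares). Filled symbols have an adjusted p under 0.05, and Scnn1a moves from 0.35 to 0.78 without the pair.

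Within groups, the genes did not vary as a block. After each group mean was subtracted, log2 CPM of Hsd11b2 and Fkbp5 had a Pearson correlation of 0.63 over 17 colons and 0.79 over the 15 without the pair. Sgk1 and Tsc22d3 had 0.75 and 0.62. Sgk1 and Fkbp5 had 0.30 and 0.34. Scnn1a and Scnn1b had −0.53 over 17 colons and 0.43 over 15, so their opposed levels came from the pair. Nr3c1 and Scnn1a had −0.79 and −0.70. Levels of muscle and epithelial markers varied among the colons within each group, and these values are descriptions only.

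The genes whose within-group pattern was most like that of Hsd11b2 over 17 colons were Krt19, a keratin of simple epithelia (r = 0.92), Serinc2 (r = 0.89) and Tst (r = 0.88). For Fkbp5 they were Ap1g2 (r = 0.92), Tep1 (r = 0.87) and Lad1 (r = 0.84). For Sgk1 they were Itpkc (r = 0.91), Neurl3 (r = 0.90) and Tob1 (r = 0.89).

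Marker RNA of muscle and epithelium moved with the groups. Of 10 smooth muscle markers 7 were lower in GWI colons and 0 higher, against 13.5% and 13.4% over all tested genes. Their median on the log2 scale was −0.91, and Myh11, the most abundant, had a log2 fold change of −1.10. Their summed level ran from 3690 to 23923 CPM with a median of 11584 CPM in control colons, and from 3658 to 11832 CPM with a median of 5142 CPM in GWI colons. Of 11 epithelial markers 4 were higher (Epcam, Cdh1, Vil1, Cdx2) and 0 lower, with Krt8 the most abundant and a summed median of 13759 CPM in control colons and 17292 CPM in GWI colons. Among tested markers of other cell types, 1 of 8 for fibroblasts (Dcn), 1 of 10 for immune cells (Itgax) and 2 of 6 for endothelium (Kdr, Emcn) were lower, and 1 of 6 for adipocytes (Cidec) was higher. Of 8 tested posterior Hox genes edgeR called 0 in either direction. At an unadjusted p under 0.05, with no share of all tested genes counted, 4 were lower and 0 higher. DESeq2 called 2 lower and limma-voom 5 lower, against 17.3% and 29.5% of all tested genes. Without the pair, 10 of 10 muscle markers were lower and 7 of 11 epithelial markers higher, against 17.5% lower and 17.4% higher over all tested genes. Lum, of the fibroblast markers, and Cldn5, of the endothelial ones, were then also lower. Plin1, of the adipocyte markers, was higher, and Itgax lost its call. Of the posterior Hox genes 3 were then lower (Hoxd9, Hoxd10, Hoxd11), with a median of −0.80 on the log2 scale. In tissue of mixed cell types, fewer cells of a type and less RNA per cell cannot be told apart. The share of these markers in the differences of Sgk1, Hsd11b2 and Fkbp5 was not tested as a cause, but fits with marker scores as covariates gave the following values. With the score of muscle minus epithelium, Sgk1 had a log2 fold change of 1.33 (adjusted p of 0.00537), Hsd11b2 one of 0.83 (adjusted p of 0.0170) and Fkbp5 one of 0.36 (adjusted p of 0.189). With the epithelium score alone, Sgk1 had 0.76 (adjusted p of 0.0746), Hsd11b2 0.19 (adjusted p of 0.456) and Fkbp5 0.17 (adjusted p of 0.481), and edgeR called 0 of the 9 genes, with 1 higher (Sgk1) and 0 lower at an unadjusted p under 0.05. No other tool was run with that score, and no share of all tested genes was counted at that unadjusted p. That fit called 207 genes higher and 78 lower in all. In the fit without a covariate, 4 of the 11 markers in that score were themselves called higher.

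Markers of surface colonocytes, the cells in which the sodium channel works, had 0 of 8 called in either direction by edgeR, with a median of 0.45 on the log2 scale and Lypd8 the most abundant. At an unadjusted p under 0.05 the counts were 2 higher and 0 lower, with no share of all tested genes counted. DESeq2 called 2 higher and limma-voom 6 higher, against 15.3% and 27.6% of all tested genes. In the 15 colons without the pair, in which Scnn1a was called higher, edgeR also called 5 of these 8 higher (Krt20, Car4, Ceacam20, Lypd8, Muc3), against 17.4% of all tested genes, with a median of 0.76 on the log2 scale. Ceacam20 then had a log2 fold change of 1.49 and Lypd8 one of 0.70, with adjusted p of 4.42e-05 and 0.00645. The part of these markers in the difference of Scnn1a was not tested. Their summed level was highest in Control replicate 1, at 19088 CPM, and in GWI replicate 5, at 15233 CPM, the same colons that led in Scnn1a. The sodium-hydrogen exchanger Slc9a3 was at 610 and 189 CPM in these and at most 99.7 CPM in the others. Markers of the kidney collecting duct, another site of the channel, were at or near 0, and Aqp2 and Umod had 0 counts in every colon.

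Sgk1, Fkbp5 and Tsc22d3 are part of a larger set of genes that glucocorticoids induce. Of 16 others, 2 were higher (Errfi1, Pdk4) and 2 lower (Klf9, Zbtb16) in GWI colons, shares close to the 13.4% and 13.5% over all tested genes, and the median over the list was 0.07 on the log2 scale. Pdk4, a kinase that slows glucose oxidation, differed by 1.33 on the log2 scale (adjusted p of 0.00615, edgeR). Zbtb16 and Klf9, transcription factors, had −1.45 and −0.37, with adjusted p of 0.0133 and 0.0246. Among the rest were Per1 (0.21), Dusp1 (0.61) and Mt1 (0.09), none past the threshold with all colons. Without the pair Dusp1, a phosphatase, was also called higher, with 0.86 on the log2 scale, an adjusted p of 0.00255 and 6 of 7 GWI colons above every control colon.

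Some receptor partners were called too. Of 9 chaperones of the receptor complex, 0 were higher and 5 lower (Hsp90aa1, Ptges3, Dnaja1, Hspa8, Bag1), against 13.4% higher and 13.5% lower over all tested genes, and the median over the list was −0.29. Dnaja1 was below every control colon in all 8 GWI colons, as were 0.523% of all tested genes. Ptges3, the cochaperone p23, had −0.49 with an adjusted p of 0.00459. Fkbp4, the immunophilin that competes with Fkbp5 for the same complex, had 0.03 with an adjusted p of 0.847. Of 8 coregulators, 5 were higher (Ncoa2, Ncoa3, Ncor1, Nrip1, Ep300) and 0 lower, against the same shares over all tested genes, with a median of 0.31. Ncor1, a corepressor, was above every control colon in all 8 GWI colons, by 0.43 on the log2 scale (adjusted p of 0.00128). Without the pair Ncoa1 was called higher as well. The counts of 0 by edgeR were also 0 at an unadjusted p under 0.05 and by DESeq2. By limma-voom 0 chaperones were higher and 1 coregulator lower, against 27.6% higher and 29.5% lower over all tested genes.

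Of 16 genes of steroid synthesis and handling, 9 were tested, 2 of which were higher (Hsd3b2, Abcb1a), against 13.4% over all tested genes. By edgeR 0 were lower, also at an unadjusted p under 0.05. DESeq2 called 2 higher and 0 lower, against 15.3% and 17.3% of all tested genes. By limma-voom 6 were higher and 1 lower, against 27.6% and 29.5%. Cyp11b1, which makes corticosterone in the adrenal gland, had at most 0.0632 CPM in any colon, and Cyp11b2, which makes aldosterone, had 0 counts in every colon. Abcb1a, a pump that exports some corticosteroids among many substrates, had 0.72 (adjusted p of 0.00471). Hsd3b2 shares sequence with its neighbours, so its count is uncertain. H6pd, which supplies Hsd11b1 with its cofactor, had 0.29 with an adjusted p of 0.0866, and 0.35 with an adjusted p of 0.0313 without the pair.

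Of 17 tested regulators of the sodium channel, 3 were higher (St14, Furin, Tmprss4) and 1 lower (Sgk3), against 13.4% and 13.5% over all tested genes. These 3 encode proteases, and Furin is known to cut the alpha and gamma subunits into their active form. Furin was above every control colon in all 8 GWI colons, at 71.7 to 80.7 CPM against 25.1 to 68.4 CPM, a difference of 0.63 on the log2 scale (adjusted p of 0.00444). Over all tested genes, 1.83% had every GWI colon above every control colon. Nedd4l, the ligase that Sgk1 restrains, had 0.34 with an adjusted p of 0.0776. Sgk3, a kinase related to Sgk1, had −0.46 with an adjusted p of 0.0444. Without the pair 5 of the 17 were higher, against 17.4% over all tested genes, with Sgk2 (0.83, adjusted p of 0.00340) and Spint1 (0.49, adjusted p of 0.00992) added. With all colons, 7 were higher and 1 lower at an unadjusted p under 0.05, with no share of all tested genes counted. DESeq2 called 3 higher and 1 lower, against 15.3% and 17.3% of all tested genes. By limma-voom 10 were higher and 2 lower, against 27.6% and 29.5%.

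Of 13 partners of sodium absorption, 1 was higher (Slc9a2) and 3 lower (Atp1b3, Atp12a, Kcnma1), against 13.4% and 13.5% over all tested genes. Atp1b1, a beta subunit of the sodium pump, had a log2 fold change of 0.19 with an adjusted p of 0.240. Slc9a3 had −0.16 with all colons and 1.33 without the pair, with adjusted p of 0.879 and 0.000412.

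Glucocorticoid levels and several of these targets follow the time of day. Of 17 circadian clock genes, 3 were higher (Arntl, Npas2, Nfil3) and 8 lower (Nr1d2, Dbp, Tef, Hlf, Per2, Per3, Ciart, Bhlhe41) in GWI colons, against 13.4% and 13.5% over all tested genes. Arntl had a log2 fold change of 1.72 and Dbp one of −1.12, with adjusted p of 0.000639 and 0.000947. The hour at which tissue was taken is not given in the sources used here, and its part in the differences of Sgk1 and Fkbp5 was not tested.

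The genes lie on 8 chromosomes and, apart from Nr3c2, share no exon with another gene. In the GENCODE M21 annotation of GRCm38, Sgk1 spans 21882184 to 21999903 on the plus strand of chromosome 10, Fkbp5 28399094 to 28517527 on the minus strand of chromosome 17 and Hsd11b2 105518755 to 105523988 on the plus strand of chromosome 8. Scnn1b and Scnn1g are neighbours on chromosome 7, at 121865038 to 121918514 and 121734479 to 121768475.

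RefSeq promoters of GRCm38.p6, from 250 bases before to 50 bases after a gene's start, were at hand for 7 of the genes in 14 entries. No entry was used for Hsd11b2, Scnn1a and Nr3c1. They were searched for AGAACA followed after 3 bases by TGTTCT, a palindrome that the glucocorticoid and mineralocorticoid receptors bind, and for CACGTG, the E-box that clock activators bind. Both read the same on either strand, and they do not overlap each other. The receptor motif occurred in 3 of 32851 promoters (0.00913%), and 1 of these was among the 6 entries of Sgk1. It was in none of the 3 entries of Tsc22d3 and not in the Fkbp5 entry. Only this exact form inside these windows was searched, so looser or more distant sites were not looked for. CACGTG occurred in 2349 promoters (7.15%), among them the same Sgk1 entry and the single Fkbp5 entry. These entries are shown because both genes rose, with the bases of the motifs that are fixed in capitals.
Sgk1, chr10:21993640-21993939, plus strand: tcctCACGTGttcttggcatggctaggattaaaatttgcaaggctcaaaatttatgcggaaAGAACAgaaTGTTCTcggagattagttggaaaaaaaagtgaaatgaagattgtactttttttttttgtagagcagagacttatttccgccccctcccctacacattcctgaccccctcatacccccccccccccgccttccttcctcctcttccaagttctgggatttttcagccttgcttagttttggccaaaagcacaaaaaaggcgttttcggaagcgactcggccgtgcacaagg
Fkbp5, chr17:28486100-28486399, minus strand: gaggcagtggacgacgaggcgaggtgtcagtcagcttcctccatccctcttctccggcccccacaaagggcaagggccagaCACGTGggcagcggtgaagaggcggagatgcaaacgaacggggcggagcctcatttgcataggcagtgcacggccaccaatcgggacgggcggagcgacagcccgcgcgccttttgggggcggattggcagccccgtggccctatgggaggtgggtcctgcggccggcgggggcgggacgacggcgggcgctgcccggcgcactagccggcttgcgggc
The receptor motif begins at −189 from the start of that Sgk1 transcript and its E-box at −246, and the E-box of Fkbp5 begins at −169. A match of letters is a description and shows no binding in these colons.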

How the data were processed

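Poly(A)-selected RNA of 9 control and 8 GWI colons was read as paired ends. The submitters' processing notes name Trimmomatic 0.36, STAR 2.5.2b and the build GRCm38, and the authors counted unique gene hits with featureCounts and deposited raw counts per gene, without normalization. All 17 columns matched a sample. Entries with a repeated symbol (48) stayed separate.

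Counts were filtered with filterByExpr, scaled by TMM and tested with edgeR 4.0.16 (R 4.3.3; glmQLFit, robust, and glmQLFTest) with condition as the only term, and p-values were adjusted over 14146 genes. The script was tested on simulated data. Within-colon ratios took log2 of counts plus 0.5 and an exact permutation test in Python 3.11.15. Alternatives included DESeq2 1.42.0, limma 3.58.1, other scalings and filters, covariates, a replicate block and each colon left out. Leaving out the colons that stand apart was chosen after seeing the data. The genes and lists were chosen with earlier results of these data known. Named genes are the 10 genes, the listed genes, and the 3 genes most correlated with each called gene. Car1 was named after its values were seen. Samples were treated as independent, and with codes that share a prefix summed, averaged or given a random effect as alternatives chosen after seeing the data. Counting intervals cover counting error only. No pair of colons within a group agreed within sampling noise.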

Additional observations from a re-analysis of the deposited data

Results flagged for a closer look

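In 30 groups of values, each holding 8 or 9 colons for a gene or a ratio, 9 had a highest or lowest colon far from the rest, where chance gives about 1 in 20 groups. The gap to the next colon, as a share of the group's whole range, was 0.846 for Scnn1a and 0.536 for Tsc22d3 in Control replicate 1, and 0.669 for Scnn1a and 0.626 for Tsc22d3 in GWI replicate 5. The log2 ratio of Scnn1b to Scnn1a was lowest in the same colons, with gaps of 0.727 in the control group and 0.746 in the GWI group. Sgk1 was far highest in Control replicate 1 among control colons, with a gap of 0.640. Of the 9, 7 were in the pair of colons high in Hoxa13. Nr3c1 was highest in Control replicate 9, with a gap of 0.518, and Hsd11b1 was highest in GWI replicate 7 among GWI colons, with a gap of 0.564. The cause of each was not tested.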

How the results depend on the processing

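Fkbp5, Hsd11b2 and Sgk1 were each called higher in all 17 fits that left out a single colon, with log2 fold changes from 0.43 to 0.54, from 0.56 to 0.73 and from 1.20 to 1.44. Over 15 other settings Sgk1 and Hsd11b2 were called in 13 each and Fkbp5 in 11. Leaving out single colons gave 1472 to 2523 genes higher, 1309 to 2295 lower, 3 to 4 of the 9 genes higher and 0 to 1 lower, the one being Hsd11b1 without Control replicate 9.

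Over all genes, upper-quartile factors gave 1214 higher and 2992 lower, limma-voom 3911 and 4180, the epithelium score 207 and 78, and the threshold on unadjusted p and fold change 92 and 250. Of the 9 genes, 5 were higher with limma-voom, 0 with the epithelium score and 1 at the threshold on unadjusted p. Chosen after seeing the data, leaving out the pair gave 5 genes higher, and leaving out Control replicate 9 as well gave 5, with 2897 and 3073 genes called higher and lower in all. Also chosen after seeing the data, counts summed over colons that share a code prefix gave 14 genes higher and 1 lower in all and 0 of the 10 genes, and the prefix as a random effect in limma-voom gave 3325 higher, 3566 lower and 5 of the 9 genes higher, at a correlation of 0.30 between such colons. Summing leaves fewer units to test.

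The sign of uncalled values turned for Nr3c1 with limma-voom (0.044; 0.040 with the prefix), the epithelium score (0.19) and in 1 fit that left out a colon (Control replicate 9, range −0.13 to 0.032), for Tsc22d3 with counts summed by prefix (−0.065), the epithelium score (−0.35) and in 1 such fit (GWI replicate 5, range −0.091 to 0.33), for Scnn1a with the epithelium score (−0.40) and for Scnn1b with muscle minus epithelium (−0.34). The cause was not tested.

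The log2 ratio of Scnn1g to Scnn1a lost its call with 5 added to each count (−0.996), without the pair (−1.89) and without Control replicate 9 as well (−1.75), and in 10 of 17 tests that left out a single colon (Control replicates 2, 3, 4, 6 and 9 and GWI replicates 1, 3, 4, 5 and 7), with values from −2.46 to −1.64 and an adjusted exact p from 0.0179 to 0.0887. The other ratios then ran from 0.35 to 0.49 for Nr3c2 to Nr3c1, from 0.90 to 1.13 for Hsd11b2 to Hsd11b1, from −0.88 to −0.059 for Scnn1b to Scnn1a and from −1.99 to −1.31 for Scnn1g to Scnn1b. Scnn1b to Scnn1a passed the threshold without Control replicate 1, at −0.88 with an adjusted exact p of 0.0278, and Scnn1g to Scnn1b without Control replicates 7 or 8 or GWI replicates 2, 6 or 8, with an adjusted exact p down to 0.0179.

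Averaged by prefix, the log2 ratios of Nr3c2 to Nr3c1 (0.35), Hsd11b2 to Hsd11b1 (1.04) and Scnn1g to Scnn1a (−1.50) lost their calls.

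Replicate numbers did not pair the colons: same-numbered colons had correlations from −0.51 to 0.11, and none correlated best with its own number. With the replicate block, 1415 genes were higher and 826 lower, Nr3c2, Hsd11b2 and Sgk1 were the 3 genes higher, Nr3c1 had 0.033, and the log2 ratios of Nr3c2 to Nr3c1 (0.39) and Scnn1g to Scnn1a (−1.89) had an adjusted exact p of 0.0781. Control replicate 9 has no partner and added nothing to that fit. Depth limits what can be said of Scnn1g and Hsd11b1, which had the lowest mean CPM of the 10 genes in both groups.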
